A study of Mus musculus with 4 samples.

Results

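The 10 genes described here, of prohormone processing and the dense-core granule, were followed through 4 RNA libraries of sorted mouse islet cells. They were Pcsk1, Pcsk2, Pcsk1n, Scg5, Cpe, Pam, Chga, Chgb, Scg2 and Scg3, chosen by symbol, and each matched 1 of the 39170 rows of the deposited gene table. The mice were MIP-GFP males on C57BL/6, 6 to 8 weeks of age, a transgenic line in which the mouse insulin 1 promoter drives green fluorescent protein. Their insulin-positive cells were split by flow cytometry into a high gate (Glut2H) and a low gate (Glut2L) for Glut2, which is the glucose transporter made from Slc2a2. The submitters describe the low gate as enriched for pancreatic multipotent progenitors. The control groups were given vehicle, and the STZ groups were given 200 mg/kg of streptozotocin, a beta cell toxin that enters through Glut2, and were diabetic 4 days later. Both gates of both treatments gave 4 groups with 1 library each. The labels name 3 mice per group, without saying whether their RNA was pooled. There was thus no replicate check, no difference was tested, and each comparison is a description of 2 libraries.

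Peptide hormones are made as longer precursors. In the granule, the convertases PC1/3 (Pcsk1) and PC2 (Pcsk2) cut them after pairs of basic residues, carboxypeptidase E (Cpe) removes the exposed basic residues, and the amidating enzyme (Pam) caps peptides that end in glycine. Insulin is matured in beta cells by PC1/3, PC2 and carboxypeptidase E, and glucagon in alpha cells mainly by PC2. The convertases have partners of their own: proSAAS (Pcsk1n) binds and inhibits PC1/3, and 7B2 (Scg5) is the chaperone that PC2 needs to become active. The granins (Chga, Chgb, Scg2, Scg3) are acidic proteins that aggregate with cargo as granules form, and several are themselves cut into bioactive peptides.

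Promoter sequence is shown first because 4 of the 10 genes share a short element near their start. RefSeq promoter windows on GRCm38.p6, from 250 bases before to 50 bases after a gene's start, were at hand for 9 of the genes (all but Cpe). The cAMP response element TGACGTCA, the binding site of the CREB family, was searched on both strands together with a looser form, TGACGTNA, that includes it. The strict form was in the windows of Pcsk1, Chgb and Scg2, that is 3 of 9 genes, and in 1.79% of all 32851 windows. The looser form added Chga and was in 2.93% of all windows. The letters of the TATA box, TATAAA, were in the window of Chga, beginning 5 bases after the RefSeq start, and in 13.6% of all windows. GENCODE release M21 places the start of Chga 28 bases downstream of the RefSeq start, so these letters lie upstream of it. A match describes letters in a window, not a bound site. Stretches of 30 bases centred on the element follow, on the strand of the gene and with the element in capitals.
Pcsk1: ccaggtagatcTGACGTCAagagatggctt
Chgb: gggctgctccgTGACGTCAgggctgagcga
Scg2: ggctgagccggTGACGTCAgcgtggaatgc
Chga: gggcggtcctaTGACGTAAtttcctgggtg
The element began 78, 72, 68 and 44 bases before the RefSeq start of Pcsk1, Chgb, Scg2 and Chga. The stretches lie at chr13:75089768-75089797 on the plus strand, chr2:132781559-132781588 on the plus strand, chr1:79440076-79440105 on the minus strand and chr12:102554886-102554915 on the plus strand. In GENCODE release M21 the element is upstream of the annotated gene for Pcsk1 and Chga, and within the untranslated part of the first exon of transcripts Chgb-201 and Scg2-201, whose starts are placed further upstream than those of RefSeq.

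Values are FPKM, fragments scaled for transcript length and for library size, and their read depth is unknown. Unless a library is named, 4 values are given with the control pair first (Glut2H, then Glut2L) and the STZ pair after it (Glut2H, then Glut2L). A single row, Gm20594, which GENCODE M21 lists as protein-coding, held 61.0%, 3.86%, 68.5% and 4.15% of all FPKM, so the share left to other genes differed between the gates. The 10 genes made up 0.145%, 1.42%, 0.102% and 1.55% of the FPKM of protein-coding rows with Gm20594 among them, and 0.704%, 1.54%, 0.627% and 1.71% without it. Beta cell markers were present in every library, but the Slc2a2 transcript went against the gates, at 8.74, 41.0, 10.8 and 33.7 FPKM. The gates are therefore called by their labels, as the library labelled Glut2L or Glut2H. Had gates or labels been exchanged, every difference between the gates given here would change sign, and this was not tested. Other cell types moved with the gate as well. The summed FPKM of 8 beta cell markers was 71053, 337924, 67163 and 209157, of 6 alpha cell markers 2326, 4224, 4386 and 9993, and of 4 delta and PP cell markers 5612, 9550.3, 5613 and 10509. For 10 immune markers it was 3114, 85.8, 3401 and 113, for 10 stromal markers 915, 61.7, 771 and 23.1, and for 8 endothelial markers 265, 33.8, 244 and 14.7. Each of the 10 immune, 10 stromal and 8 endothelial genes was lower in the Glut2L-labelled library of both pairs. Gcg made up nearly all of the alpha cell sum. Acinar markers (8) stood at 3219, 2615, 3550.0 and 307, and neuronal and glial markers (8) at 49.1, 112, 33.5 and 102, with Snap25, which endocrine cells also express, at 26.3, 81.7, 21.2 and 81.2 of that. In the Glut2L STZ library the endothelial marker Tie1 and 3 neuronal or glial markers (Stmn2, S100b and Gfap) were listed at 0. Stmn2 and S100b were also at 0 in Glut2L control, and Stmn2 and Gfap in Glut2H STZ. The acinar marker Amy2a5 was at 0 in every library. A library with fewer endocrine cells cannot be told apart here from one whose endocrine cells hold less of these RNAs, and the part of cell makeup in the gate differences was not tested.

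The gates were compared to ask how low-Glut2 and high-Glut2 insulin-positive cells differ. All 10 genes stood higher in the Glut2L-labelled library of each pair, control and STZ alike, by 2.22-fold to 4.61-fold in FPKM. The highest fold in control mice was that of Scg5 (4.61) and the lowest that of Pam (2.64). After STZ the highest was that of Chgb (4.41) and the lowest that of Pcsk2 (2.22). On the scale of log2(FPKM + 1), over rows with at least 1 FPKM in either library, 10 of 10 genes were at least 2-fold higher in control mice, where 19.7% of 16234 rows were. Their median difference was 1.78, beside 0.15 for all rows. After STZ it was again 10 of 10, beside 22.9% of 15839 rows, with a median of 1.66 beside 0.23. In neither pair was a gene at least 2-fold lower, where 18.5% and 17.8% of rows were. The STZ value of Pcsk2 was 1.14 as deposited and 0.91, under 2-fold, when the median of all rows was set to 0. The deposited table gives an interval around each FPKM, of a level that is not stated, with a median half-width of 68.5% to 78.3% of the FPKM over the 10 genes in the 4 libraries. Measured by these intervals, 0 of 10 genes were apart between the gates in control mice, where 0.474% of rows were at least 2-fold higher with intervals apart and 4.15% lower. After STZ it was again 0 of 10, where 0.915% were higher and 4.08% lower. For Chga, the intervals in control mice ran from 350.2 to 2428 and from 799.9 to 10946 FPKM.

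**Figure D1:**
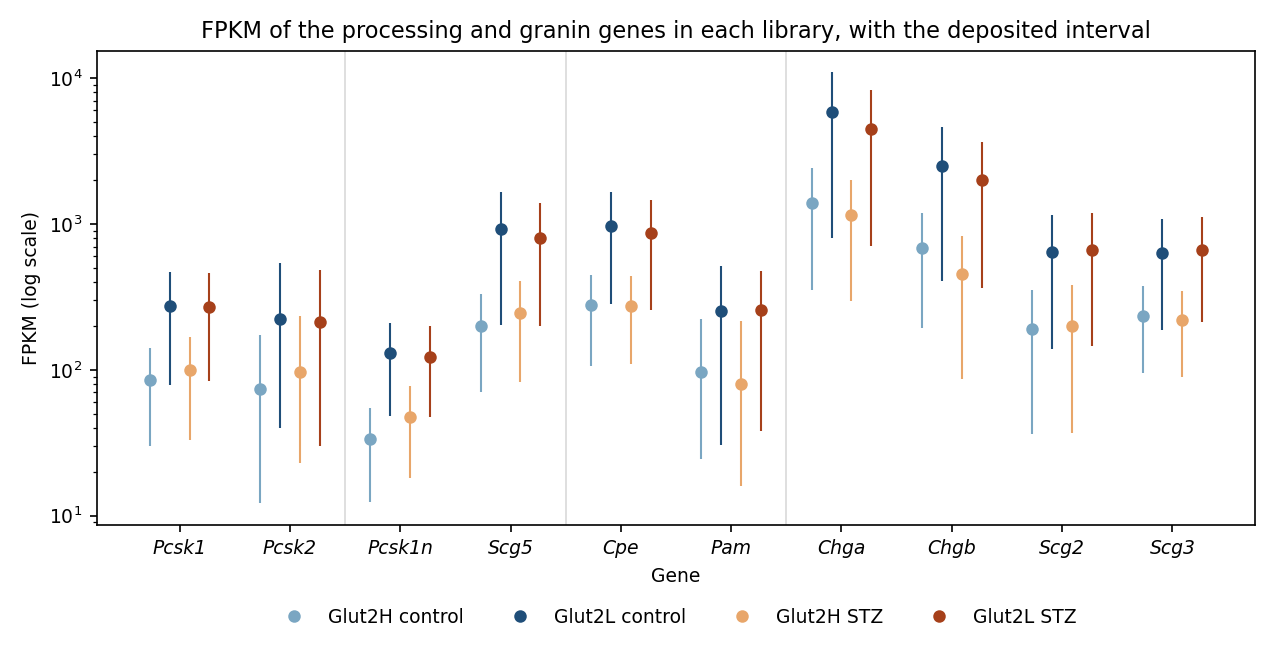
FPKM of each gene on a log axis in the 4 libraries, points for the value and lines for the deposited interval, with grey rules between convertases, their partners, the finishing enzymes and the granins. Both Glut2L points of every gene lie above both Glut2H points, and every pair of intervals overlaps. The share of all rows with this order of points was not counted.

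The convertases stood close to each other in all libraries. Pcsk1, which encodes PC1/3 (ENSMUSG00000021587, GRCm38 chromosome 13, 75089826 to 75134861, plus strand), was at 85.6, 274, 100.03 and 271 FPKM. Pcsk2, which encodes PC2 (ENSMUSG00000027419, chromosome 2, 143546156 to 143816285, plus strand), was at 73.5, 223, 96.3 and 214. For both genes the 2 libraries labelled Glut2L stood above the 2 labelled Glut2H, an order whose share among all rows was not counted. Folds between the gates were 3.19 and 2.71 for Pcsk1 in control and STZ mice and 3.04 and 2.22 for Pcsk2. A ratio of 2 genes within a library is free of any scaling between libraries, and Pcsk1 to Pcsk2 stood at 1.16, 1.22, 1.04 and 1.27. Pcsk2 was therefore the lower of the pair everywhere, by little. Against Gcg, the glucagon gene, Pcsk2 ran at 0.032, 0.054, 0.022 and 0.022 FPKM per FPKM, highest in the Glut2L control library. Antisense genes overlap the Pcsk2 locus, with Pcsk2os2 at 8.48, 19.7, 13.4 and 23.0 FPKM and Pcsk2os1 at 1.86 to 4.26. The library kit keeps strand, but no source used here says whether the quantification did.

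The partners of the convertases differed in level by several-fold. Pcsk1n, the proSAAS gene (ENSMUSG00000039278, chromosome X, 7919822 to 7924410, plus strand), was the lowest of the 10 genes in every library, at 33.5, 129.5, 47.5 and 123 FPKM. Scg5, the 7B2 gene (ENSMUSG00000023236, chromosome 2, 113776362 to 113829121, minus strand), was at 201, 924, 244 and 799.9. Between the gates the folds were 3.86 and 2.59 for Pcsk1n and 4.61 and 3.28 for Scg5, larger in control mice than after STZ for both. The inhibitor gene ran below its target, with Pcsk1n to Pcsk1 at 0.39, 0.47, 0.48 and 0.45. The chaperone gene ran above its client, with Scg5 to Pcsk2 at 2.73, 4.14, 2.53 and 3.74. Scg5 to Pcsk2 was thus the more gate-dependent of these ratios, higher in both libraries labelled Glut2L, and its highest value was 1.64 times its lowest, while Pcsk1 to Pcsk2 spanned 1.22 times and Pcsk1n to Pcsk1 1.21 times.

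The finishing enzymes were also higher in both libraries labelled Glut2L. Cpe (ENSMUSG00000037852, chromosome 8, 64592542 to 64693054, minus strand) was at 278, 972, 276 and 863 FPKM, with folds between the gates of 3.49 in control and 3.13 in STZ mice. Pam (ENSMUSG00000026335, chromosome 1, 97795114 to 98095646, minus strand) was at 96.4, 255, 79.5 and 255, with folds of 2.64 and 3.21 between the gates. Cpe ran at 2.88, 3.81, 3.47 and 3.38 times the level of Pam. Cpe was alike in both Glut2H libraries, and Pam was alike in both Glut2L libraries. Noncoding genes also overlap the long Pam locus, among them B230216N24Rik on the same strand at 8.13, 3.53, 10.01 and 2.76 FPKM, in the opposite order of gates to Pam.

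The granins held most of the RNA of the 10 genes, at 76.5%, 77.7%, 70.5% and 75.6% of their summed FPKM. Chga, which encodes chromogranin A (ENSMUSG00000021194, chromosome 12, 102554969 to 102565028, plus strand), was the highest, at 1389, 5885, 1146 and 4494 FPKM. It ranked at 24, 9, 32 and 10 among 21212 protein-coding rows. Chgb, the chromogranin B gene (ENSMUSG00000027350, chromosome 2, 132781278 to 132795079, plus strand), was at 688, 2505, 453 and 1999 and ranked at 51, 17, 79 and 18. Scg2, which encodes secretogranin 2 (ENSMUSG00000050711, chromosome 1, 79434669 to 79440120, minus strand), was at 191, 644, 200 and 667 FPKM. Scg3, whose product binds chromogranin A and helps sort it into granules (ENSMUSG00000032181, chromosome 9, 75643189 to 75684056, minus strand), was at 235, 632, 219 and 667. Folds between the gates in control and STZ mice were 4.24 and 3.92 for Chga, 3.64 and 4.41 for Chgb, 3.38 and 3.34 for Scg2 and 2.69 and 3.05 for Scg3. Within libraries Chga to Chgb stood at 2.02, 2.35, 2.53 and 2.25. Scg3 to Chga was 0.169, 0.107, 0.191 and 0.148, lower in the library labelled Glut2L of each pair, with the highest value 1.78 times the lowest. Over the 10 genes, 6 ranked among the 100 highest protein-coding rows in each library labelled Glut2L and 2 in each labelled Glut2H.

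**Figure D2:**
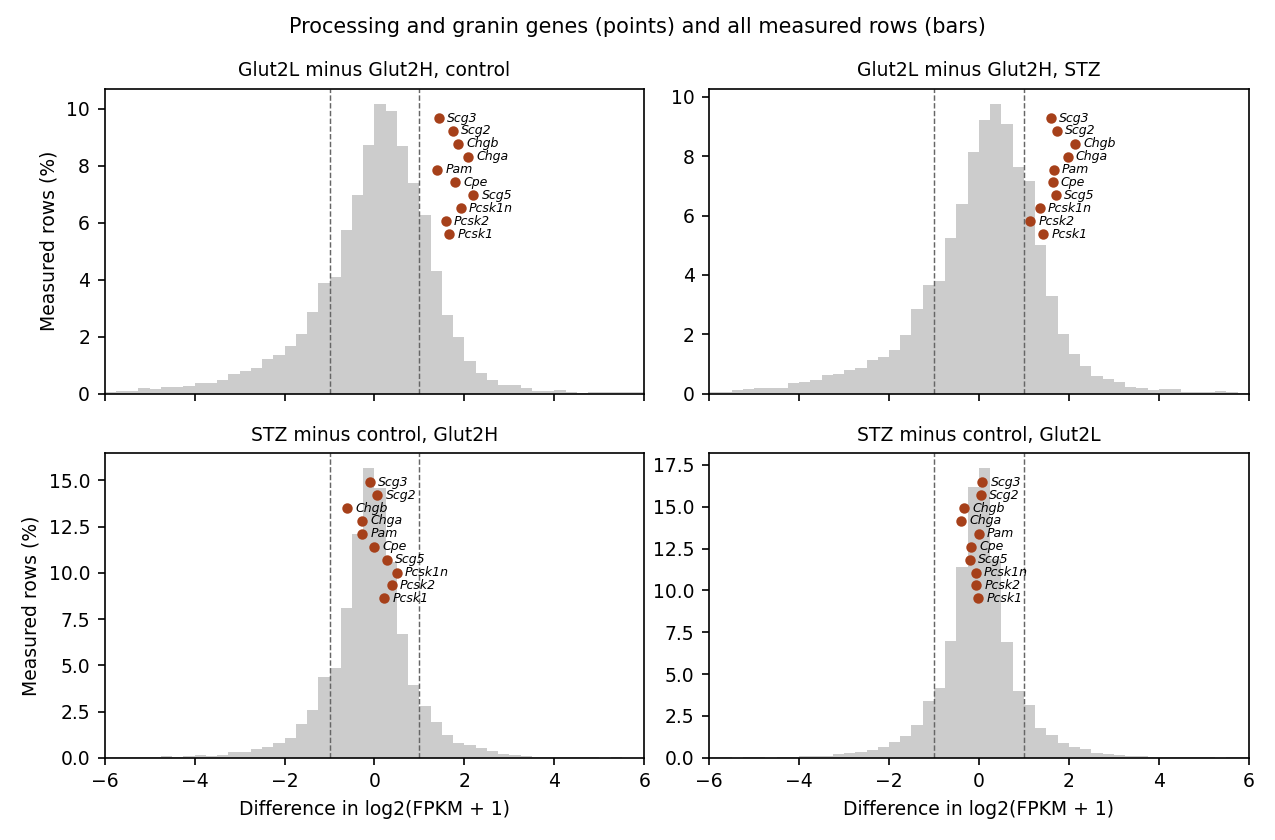
Differences in log2(FPKM + 1) of the 10 genes (points, spread by height for legibility) over the distribution of all measured rows (grey bars, percent of rows per bin), 1 panel per comparison, with dashed lines at 2-fold. In both gate comparisons all 10 points lie beyond the upper line, and in both STZ comparisons all lie between the lines.

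Within each gate, STZ was compared with vehicle to ask what changed with the toxin. These comparisons use the same 4 libraries as those between the gates, so their values are not independent. None of the 10 genes differed at least 2-fold after STZ in either gate, and single values were small in both directions. In the Glut2L libraries 0 of 10 reached 2-fold upward and 0 downward, where 10.2% and 11.1% of 15602 rows were. Differences ran from -0.39 for Chga to 0.08 for Scg3, with a median of -0.07 beside 0.00 for all rows. In the Glut2H libraries it was 0 of 10 in each direction, where 9.62% and 13.8% of 15558 rows were. Differences there ran from -0.60 for Chgb to 0.49 for Pcsk1n, with a median of 0.03 beside -0.07. By the deposited intervals 0 of 10 genes were apart in Glut2H, where 0.341% of rows were at least 2-fold higher with intervals apart and 0.643% lower, and 0 of 10 in Glut2L, where 0.276% were higher and 0.378% lower. Both medians changed sign when each library was scaled to the same total FPKM, to -0.20 in Glut2H and 0.015 in Glut2L, while the median of all rows was then -0.26 and 0.08. Chga and Chgb were lower after STZ in both gates, by 0.28 and 0.60 on the log2 scale in Glut2H and by 0.39 and 0.33 in Glut2L, under each of the scalings tried. In Glut2H the convertase genes and their partners lay above 0, at 0.22 for Pcsk1, 0.39 for Pcsk2, 0.49 for Pcsk1n and 0.28 for Scg5, and these signs also held under each scaling, though Pcsk1 was then as low as 0.00014. Of the 10 genes, 5 lay above 0 in Glut2H and 5 below, and the shares of all rows with these signs were not counted. Acinar markers also moved with STZ in Glut2L, from a sum of 2615 to 307 FPKM, and alpha cell markers from 4224 to 9993. Their part in these differences was not tested.

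Set beside the hormone precursors that these enzymes act on, the 10 genes lay between insulin and glucagon after STZ in Glut2L. The median of all rows there, 0.00, also lay between them, so this place is not particular to the 10 genes. Shares of all rows above or below each precursor gene were not counted, in this gate or in Glut2H. In the Glut2L libraries Ins2 differed by -0.74 and Ins1 by -0.57, and all 10 genes lay above both. Gcg differed by 1.25, from 4170.0 to 9893 FPKM, and all 10 lay below it. Of the other precursor genes, Sst at 0.14, Ppy at 0.09 and Pyy at 0.22 also lay above all 10, and Iapp at 0.02 lay above 8. In the Glut2H libraries Ins2 differed by -0.12 and Ins1 by -0.08, and 7 and 6 of the 10 lay above them. Gcg differed there by 0.92, above all 10, while Iapp at 0.36 and Sst at 0.34 each lay above 8, and Ppy at -0.21 and Pyy at -0.13 each below 7. The difference of the STZ effects, Glut2L minus Glut2H, ran from -0.56 for Pcsk1n to 0.28 for Pam. Its median was -0.13 beside 0.05 for all rows, and 0 of 10 reached 2-fold in either direction, where 14.6% of 13427 rows were at least 2-fold higher and 12.5% lower. This median turned to 0.17 with every library scaled to the same total.

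**Figure D3:**
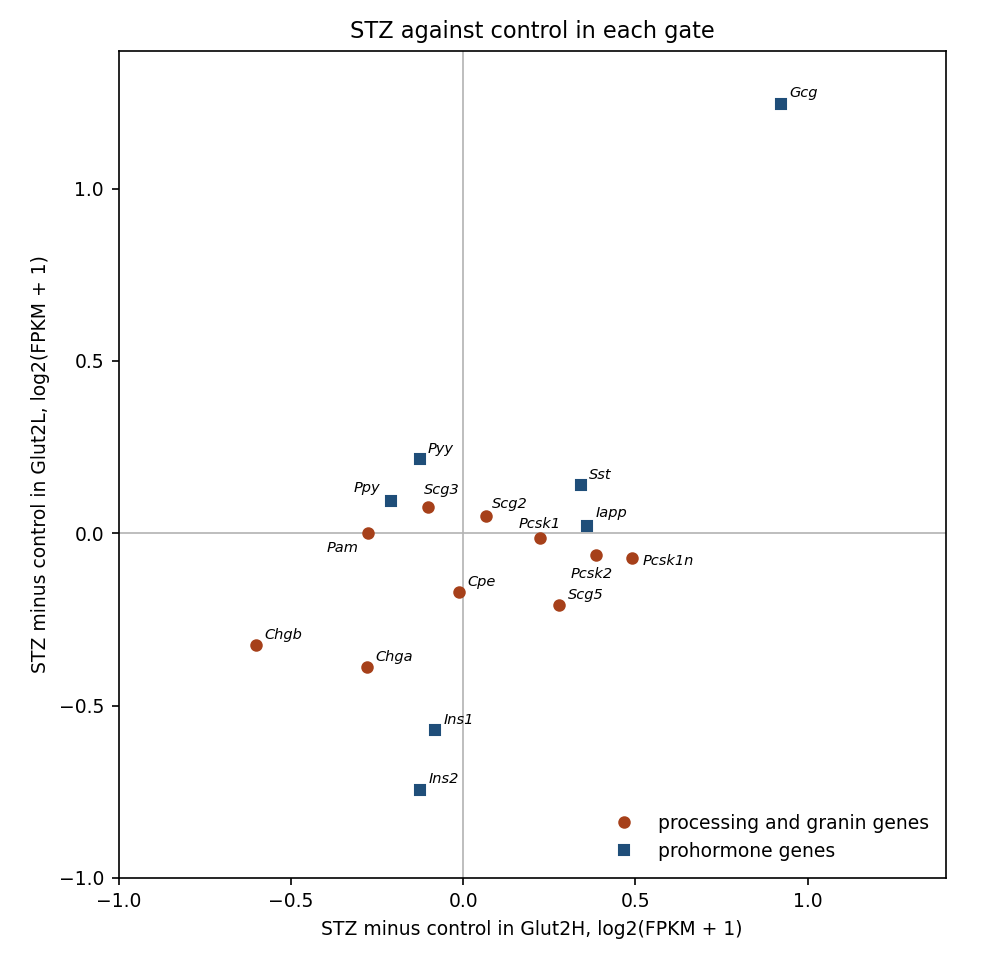
STZ minus control in log2(FPKM + 1), Glut2H libraries on the horizontal and Glut2L libraries on the vertical axis, for the 10 genes (circles) and 7 prohormone genes (squares). The circles lie within 0.60 of 0 on both axes, with Ins1 and Ins2 below them and Gcg above. The share of all rows between these precursor genes was not counted.

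Ins2 was highest in the library labelled Glut2L of control mice, and the 10 genes were lower against it there than in any other. In that library Ins2 was at 294540.0 FPKM, and its difference between the gates, 2.36, was above that of all 10 genes. After STZ its difference was 1.74, above that of 8 of the 10. Ins1, at 1.78 in control mice and 1.29 after STZ, had 5 and 9 of the 10 genes above it. All 10 lay above Iapp, Gcg, Sst, Ppy and Pyy in control mice, and 9 or 10 lay above each of these after STZ. Chga ran at 24.2, 19.98, 21.8 and 25.6 FPKM per 1000 FPKM of Ins2, and Chgb at 11.99, 8.504, 8.62 and 11.4. Scg3 ran at 4.09, 2.15, 4.16 and 3.79, Pcsk1 at 1.49, 0.929, 1.90 and 1.54 and Pcsk2 at 1.28, 0.758, 1.83 and 1.22. For 10 of 10 genes the lowest of the 4 values was that of the Glut2L control library, and for 7 the highest was that of the Glut2H STZ library. Ins2, the divisor, was at 57345, 294540, 52596 and 175841 FPKM, so its own order enters every ratio. The median difference of all rows was below that of Ins2 between the gates in control mice (0.15 beside 2.36). For STZ in Glut2L it was above that of Ins2 (0.00 beside -0.74). A gene at these medians would also be lower against Ins2 in the Glut2L control library, so the 10 of 10 is not particular to these genes. The share of all rows lowest against Ins2 in that library was not counted, nor were shares above each other precursor gene. Gcg to Ins2 was also lowest in the Glut2L control library, at 0.040, 0.014, 0.082 and 0.056. The part of non-beta endocrine cells in these ratios was not tested. The deposited interval of Ins2 in the Glut2L control library does not contain its value, and the error of these ratios is unknown. Summed, the 10 genes reached 4.93, 3.82, 4.68 and 5.27 FPKM per 100 FPKM of Ins1 and Ins2 together.

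**Figure D4:**
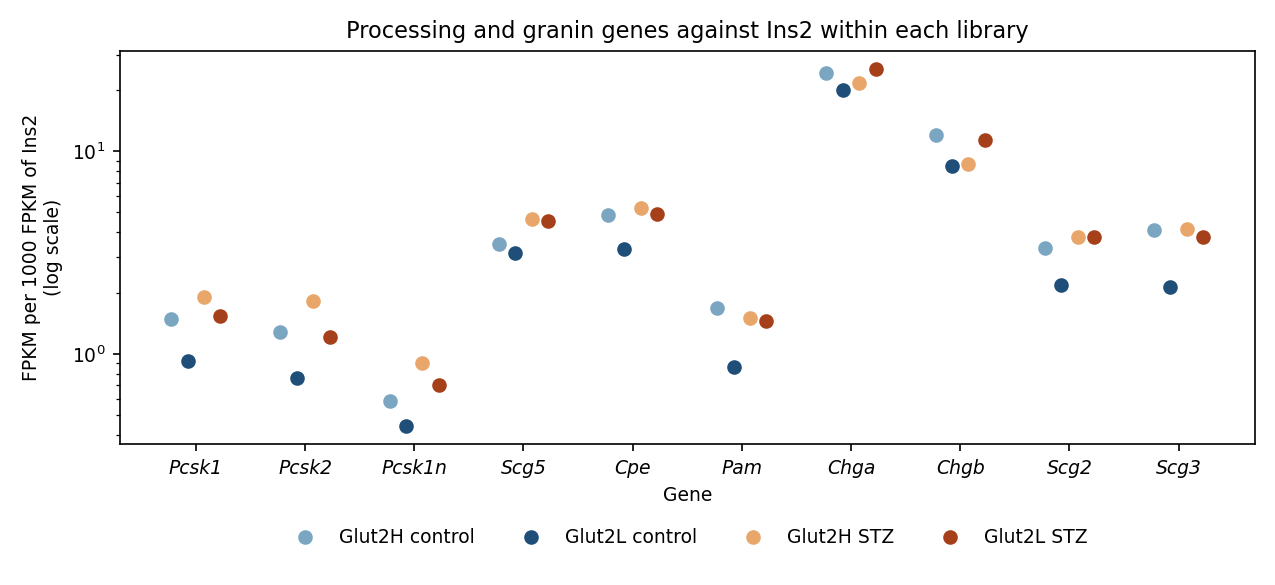
FPKM of each gene per 1000 FPKM of Ins2 in the same library, on a log axis. The Glut2L control point is the lowest of the 4 for every gene, from 0.440 for Pcsk1n to 19.98 for Chga. Ins2, the divisor, was highest in that library, and the share of all rows with this order was not counted.

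Other genes of the pathway came from lists set by function. They too were chosen with earlier results known, and their counts stand beside the same shares of all rows as above. Of 15 other granins and granule proteins, the library labelled Glut2L held 12 at least 2-fold higher in control mice and 11 after STZ, with 0 lower in both and medians of 1.48 and 1.38. The highest in control mice were Nucb2, the nesfatin gene, at 49.98, 241, 66.4 and 182 FPKM, and the monoamine transporter gene Slc18a1, at 2.61, 16.0, 14.8 and 14.5, which was level between the gates after STZ. The highest after STZ were Vgf, a granin-like precursor, at 58.1, 206, 49.98 and 225, and Cyb561, which passes the electrons that Pam uses, at 9.58, 28.6, 6.22 and 30.4. The lowest were Slc18a2, at 1.88, 1.96, 0.704 and 1.09, and Gnas, at 104, 194, 91.4 and 177, for control mice, with Slc18a1 and Slc18a2 after STZ. The other proprotein convertases mostly act in the Golgi or at the cell surface. Among the 6 measured, 0 reached 2-fold in either direction in either pair, with medians of 0.14 and 0.65, and Furin, the convertase of the Golgi, was at 26.5, 23.0, 19.4 and 13.4 FPKM. The highest differences were those of Mbtps1 in control mice, at 10.8, 16.6, 9.92 and 16.7, and of Pcsk6 after STZ, at 7.32, 10.5, 5.26 and 11.3. Pcsk7, the lowest in control mice, was at 5.86, 4.20, 5.64 and 6.05.

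Relatives of Cpe lay on both sides. Of 6 measured carboxypeptidase genes, the library labelled Glut2L held 2 at least 2-fold higher and 2 lower in control mice, and after STZ 1 and 1, with medians of 0.34 and 0.34. Cpn1 was at 4.91, 11.8, 3.24 and 17.3 FPKM and Cpm at 2.37, 6.72, 7.08 and 6.79. Aebp1, a gene of matrix-producing cells, was at 30.5, 2.46, 39.5 and 2.09, and Cpxm1 at 6.79, listed at 0, 4.10 and 1.60, beside stromal marker sums of 915, 61.7, 771 and 23.1. Cpd, the carboxypeptidase of the Golgi, was at 18.5, 27.0, 16.7 and 28.4. Of 12 other measured enzymes that cut or modify peptides, 1 was at least 2-fold higher and 4 lower in control mice, against 0 and 2 with STZ, with medians of -0.50 and -0.48. The cathepsin genes Ctsb, at 237, 56.1, 242 and 40.3, and Ctsl, at 314, 138, 403 and 151, were lower in both pairs, beside immune marker sums of 3114, 85.8, 3401 and 113. Dpp4, the protease that inactivates incretins, was at 3.04, 9.29, 1.28 and 3.51, at least 2-fold higher in control mice and just under that after STZ (0.99). Ece1, an endothelin-converting enzyme, was at 724, 916, 187 and 247, lower after STZ by 1.94 on the log2 scale in Glut2H and 1.89 in Glut2L. Of 10 genes that supply copper or protons to granules, 1 was at least 2-fold higher in control mice (the chloride transporter gene Clcn3, at 11.6, 25.7, 17.3 and 27.5) and 0 after STZ, and none was lower. The proton pump gene Atp6v1a was at 107, 68.2, 119 and 78.3 FPKM, and the copper chaperone gene Atox1 at 118, 86.6, 116 and 78.8. Both were higher in the libraries labelled Glut2H, by less than 2-fold.

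**Figure D5:**
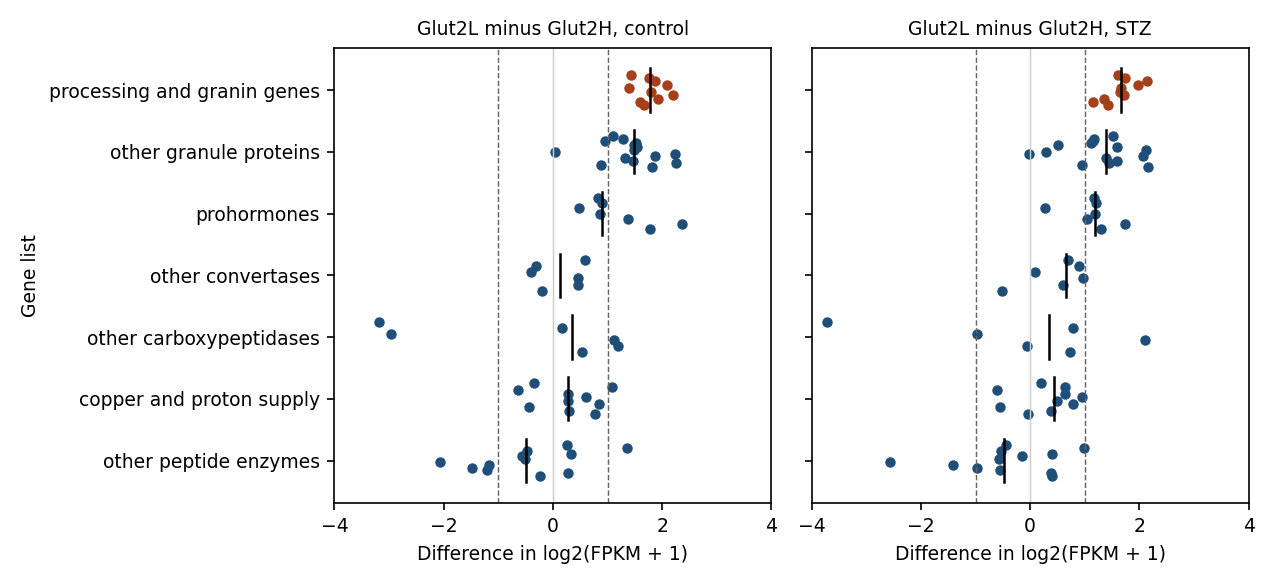
Difference between the gates in log2(FPKM + 1) for each measured gene of the 10 (top row) and of 6 lists of related genes, in control mice (left) and after STZ (right), with a black bar at each median and dashed lines at 2-fold. The 10 genes and the other granule proteins have the highest medians, 1.78 and 1.48 on the left and 1.66 and 1.38 on the right.

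The 10 genes also varied among themselves over the 4 libraries. Each profile of log2(FPKM + 1) was centred on its own mean and compared with the median profile of the 10, which ran at -0.88, 0.85, -0.84 and 0.79. The Euclidean distance to it was smallest for Cpe (0.10) and Scg2 (0.11) and largest for Chgb (0.59), Chga (0.48) and Pcsk2 (0.40). Among 9683 other genes with a mean of at least 5 FPKM, the 5 nearest were Ripk4 (distance 0.076), Gpc4 (0.077), Acad8 (0.091), Man1b1 (0.096) and Hax1 (0.11). Of these, Man1b1, a mannosidase gene of glycoprotein quality control, stood at 14.7, 55.3, 15.4 and 50.2 FPKM, and Hax1 at 27.7, 90.1, 28.1 and 81.6. With a mean of at least 20 FPKM, 2 of these 5 remained nearest, and C1d, Syt4 and Insm1 joined them, the last a transcription factor gene of endocrine cells at 20.3, 77.7, 23.0 and 76.8. Likeness was measured over 4 libraries alone, and 517 other genes were nearer to the median profile than Chgb was.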

How the data were processed

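RNA libraries were stranded total RNA after ribosomal RNA removal, 1 per sorted group, per the labels' protocols. Per the submitters' processing notes, the authors used TopHat2, SAMtools and Cuffdiff on GRCm38 (mm10). Their versions, annotation and normalization: not given in the sources used here. As deposited, values are FPKM with interval bounds and a status per gene, per the file headers. The 4 separate sample tables held the same FPKM (0 of 156680 values differed).

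Each comparison took log2(FPKM + 1) differences between 2 libraries, over rows whose status was OK in both and whose FPKM reached 1 in either, and counted differences of at least 2-fold. The log2 fold understates the change of low genes. No test was run, since each group has 1 library. A pair of intervals counted as apart only where both values lay inside their own interval. Positions and biotypes came from GENCODE M21, promoters from RefSeq. The code that counts 2-fold differences was run on simulated data with known larger changes and little noise. That run checks the counting alone and gives no error of the calls in these libraries. Python 3.11.15, pandas 2.3.3 and NumPy 2.4.6 were used.

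The 10 genes, the related lists and the cell type markers were chosen with earlier results of these data known. Named genes were the 10 genes, 7 prohormone genes, the 2 highest and 2 lowest of a related list, and the 5 nearest patterns, apart from an item that is not reported here. Other related genes, and the genes nearest at 20 FPKM, were named after their values were seen. Alternatives were other pseudocounts, filters, scalings, a protein-coding background, intervals apart and the separate tables.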

Additional observations from a re-analysis of the deposited data

Results flagged for a closer look

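The STZ effects of 6 of the 10 genes had opposite signs in the 2 gates, beside 49.5% of all rows measured in both. Each side was 1 library, and the difference between the gates was not tested. On the scale of log2(FPKM + 1), Pcsk1 differed by 0.22 in Glut2H and by -0.015 in Glut2L, Pcsk2 by 0.39 and -0.062, Pcsk1n by 0.49 and -0.073 and Scg5 by 0.28 and -0.21. In the other direction, Pam differed by -0.28 in Glut2H and by 0.00083 in Glut2L, and Scg3 by -0.10 and 0.077. The opposition did not hold under every scaling. With each library scaled to the same total FPKM, Pcsk1 (0.00014 and 0.068), Pcsk2 (0.16 and 0.020) and Pcsk1n (0.27 and 0.0092) lay above 0 in both gates, and with the median of all rows set to 0, Pam (-0.20 and -0.0034) lay below 0 in both. Pam was also below 0 in Glut2L (-0.036) with a total that leaves out the most abundant rows, the mitochondrial genes and very short loci. The count of 6 of 10 is near the 49.5% of all rows, so opposite signs are not particular to these genes.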

How the results depend on the processing

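All 10 genes kept a higher level in the library labelled Glut2L, in both pairs, under each of the 9 alternatives that give single values. Among these, the filters, the protein-coding background and the separate tables leave a single gene's value unchanged by construction. Only the pseudocounts and scalings could move it. The 10 genes also stayed at least 2-fold higher, apart from Pcsk2 after STZ (0.91 with the median of all rows set to 0). With the condition that deposited intervals do not overlap, the count at least 2-fold higher was 0 in control mice and 0 after STZ. Scaling each library to the same total FPKM moved the median of all rows between the gates from 0.15 to 0.87 in control mice and from 0.23 to 1.18 after STZ. It turned the median STZ effect of the 10 genes to -0.20 in Glut2H and 0.015 in Glut2L, and the difference of these effects to 0.17. With the most abundant rows, mitochondrial genes and very short loci left out of the total, they were 0.014, -0.10 and -0.16 in that order. The totals were 2935084, 1654276, 3428745 and 1562036 FPKM. Gm20594 alone held 1789790 FPKM in Glut2H control and 2348010 in Glut2H STZ, each more than either whole Glut2L total. Why this row was so high in the Glut2H libraries was not tested. With equal totals over all rows, 44.3% and 58.4% of rows reached 2-fold in favour of the library labelled Glut2L. Of the calls, 78.6% and 85.6% were in that direction, against 51.6% and 56.4% as deposited. Rows at least 2-fold higher numbered 3203 and 3634 as deposited, 7351 and 9508 with equal totals, 1418 and 1471 with a pseudocount of 5, and 77 and 145 with intervals apart. Rows lower numbered 3002 and 2814 as deposited, 2006 and 1595 with equal totals, 1462 and 1443 with a pseudocount of 5, and 673 and 647 with intervals apart. For STZ against control the rows higher fell from 1496 to 570 in Glut2H and from 1585 to 537 in Glut2L with a pseudocount of 5. No paired analysis was possible because each group has 1 library and the labels give no replicate numbers to pair, and for the same reason no library could be left out. An additive fit of gate and treatment, which would take their interaction as error with 1 residual degree of freedom, was not run. Depth is unknown, so no counting error could be given.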
